A study of Mus musculus with 10 samples.

Results

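The 9 genes described here encode cytosolic and mitochondrial chaperones and were taken by name from 24386 genes counted in every sample. They are the HSP70 genes Hspa1a, Hspa1b and Hspa8, the HSP110 gene Hsph1, the HSP90 gene Hsp90aa1, the HSP40 genes Dnaja1 and Dnajb1, and the mitochondrial chaperonin genes Hspd1 and Hspe1. The rule uses names and no measured value, but earlier results of these data were known when the genes were chosen. All 9 were found in all 10 samples, and 7 passed the filter on low counts that left 14525 genes for testing. Hspa1a and Hspa1b did not pass it.

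Nascent RNA was read by transient transcriptome sequencing (TT-seq), in which cells incorporate 4-thiouridine for a few minutes and the labelled RNA is purified and sequenced. The cells were TX1072, a female embryonic stem cell line from a cross of C57BL/6 (B6) and Mus musculus castaneus (Cast) mice, in which doxycycline (DOX) turns on Xist from the B6 X chromosome. The groups were 0, 4, 8, 12 and 24 h of DOX with 2 replicates each, and total counts ran from 18809046 to 22274929 per sample. All groups share the line, the inducible Xist allele and the medium with 2 kinase inhibitors and LIF, and the 0 h samples received no DOX. All samples come from 1 cell line, every DOX sample also made Xist, and longer DOX meant longer culture, so these effects cannot be told apart. The study calls its replicates biological duplicates and the labels name no culture or day. The p-values therefore refer to variation between these samples only, which edgeR moderates toward the trend over all tested genes.

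Heat shock proteins bind unfolded or partly folded proteins and help them to reach or keep their native state. Under heat or other protein-damaging stress the transcription factor Hsf1 binds heat shock elements, arrays of inverted GAA repeats, and raises transcription of the inducible members within minutes, whereas Hspa8 and the chaperonin genes are also transcribed without stress. HSP70 proteins work with J-domain proteins of the HSP40 group, which deliver substrates and stimulate ATP hydrolysis, and with HSP110, which exchanges the nucleotide.

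The cells carried the markers of the labelled type. The summed level of 10 naive stem cell markers was 2830 to 3200 CPM (counts relative to a library of 1000000, scaled by the trimmed mean of M values, TMM), with 9 of the 10 at 5 CPM or more. The remaining marker, Sox2, was listed at 0 in all samples, and its span lies within that of Sox2ot on the same strand. The summed level of 6 primed epiblast markers was 254 to 298 CPM, with 3 of the 6 at 5 CPM or more. The summed level of 8 fibroblast markers was 4.67 to 7.57 CPM, with Postn and Lum at 0. Xist rose from 31 and 32 reads at 0 h to between 6348 and 14211 reads in the 8 DOX samples.

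The stretches before the counted starts of the 2 inducible HSP70 genes, of Hsph1 and of the chaperonin pair are shown because they hold matches to heat shock elements and because Hspa1a and Hspa1b are near-copies. Bases come from the RefSeq promoter table for GRCm38.p6, 5′ to 3′ on the gene's strand (the plus strand for the chaperonin gap), with capitals for a pair of inverted GAA units 2 bases apart or for a CCAAT box on either strand. The Hspa1a stretch is chr17:34972157-34972406 (minus strand), the Hspa1b stretch chr17:34959239-34959488 (minus strand), the Hsph1 stretch chr5:149636337-149636586 (minus strand), and the gap between Hspd1 and Hspe1 chr1:55087933-55088147.
Hspa1a: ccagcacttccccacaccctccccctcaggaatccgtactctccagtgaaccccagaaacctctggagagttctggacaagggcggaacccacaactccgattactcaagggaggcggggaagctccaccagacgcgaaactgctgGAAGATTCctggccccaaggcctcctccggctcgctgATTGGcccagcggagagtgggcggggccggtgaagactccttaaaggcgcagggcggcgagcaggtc
Hspa1b: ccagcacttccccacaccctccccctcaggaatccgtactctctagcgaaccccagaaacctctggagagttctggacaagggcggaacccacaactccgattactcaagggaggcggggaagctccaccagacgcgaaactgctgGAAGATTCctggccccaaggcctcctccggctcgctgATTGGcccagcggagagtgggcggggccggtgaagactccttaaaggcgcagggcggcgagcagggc
Hsph1: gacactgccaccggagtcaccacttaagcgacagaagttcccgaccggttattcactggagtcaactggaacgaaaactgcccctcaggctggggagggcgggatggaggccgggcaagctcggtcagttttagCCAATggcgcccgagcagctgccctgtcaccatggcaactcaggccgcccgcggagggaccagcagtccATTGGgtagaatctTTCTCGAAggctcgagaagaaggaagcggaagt
Hspd1-Hspe1 gap: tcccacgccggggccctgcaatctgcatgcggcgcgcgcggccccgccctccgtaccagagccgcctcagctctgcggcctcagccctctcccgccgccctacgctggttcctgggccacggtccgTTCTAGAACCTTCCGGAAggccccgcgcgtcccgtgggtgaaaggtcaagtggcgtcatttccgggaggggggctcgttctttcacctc

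The Hspa1a and Hspa1b stretches differed at 3 of 250 bases, and each held 1 match to a heat shock element of 2 units, which starts 104 bases before the transcription start. Hspd1 on the minus strand and Hspe1 on the plus strand are transcribed away from each other, and the 215 bases between their starts held 4 GAA units in alternating orientation. That run starts 89 bases before the Hspe1 start and 144 bases before the Hspd1 start. Hsph1 held a match of 2 units 33 bases before its start and one of 3 units 36 bases after it, outside the stretch shown.

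Promoter windows of 250 bases before and 50 after the counted start were present for 7 of the 9 genes, Hspa8 and Hsp90aa1 having none in the table. A heat shock element of 2 units, GAANNTTC or TTCNNGAA, was found in 6 of these 7 windows and in 15.1% of 32817 windows of all genes. The window without one was that of Dnajb1. An element of 3 units, GAANNTTCNNGAA or TTCNNGAANNTTC, which contains the 2-unit letters, was found in 3 of the 7 windows, those of Hspd1, Hspe1 and Hsph1, and in 0.603% of all windows. The Hspd1 and Hspe1 windows overlap and share their match, and the Hspa1a and Hspa1b stretches are near-copies, so the windows are not independent. Members were scored at the counted start, whereas the share of all windows takes in every start in the table. Windows at other starts of Hspd1, Dnaja1 and Dnajb1 held no match of 2 units, and that of Hsph1 held the same ones. A CCAAT box was in 4 of 7 windows and in 37.4% of all windows, and TATAAA was in 0 of 7 and in 13.6%. Both strands were searched, and a match describes letters only.

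Nascent levels spanned a wide range. Per kb of counted span, introns included, the mean level of Hspa8, the constitutive cytosolic HSP70, was 151 CPM per kb, rank 8 of the tested genes. Hsp90aa1, which encodes the cytosolic HSP90 alpha isoform, followed at 138 CPM per kb and rank 9. On the same scale Hspd1, the chaperonin HSP60, had a level of 33.0 and its co-chaperonin gene Hspe1 21.3. Hsph1 had 11.3, the HSP40 gene Dnaja1 8.51 and the HSP40 gene Dnajb1 3.35 CPM per kb. The 9 genes together took 0.19% to 0.238% of all counts of a sample.

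Hspa1a and Hspa1b, the stress-inducible HSP70 genes, were close to silent at every time. Hspa1a (chr17:34969359-34972156, minus strand) had 2 and 1 reads without DOX, 0 and 3 after 4 h, 0 and 1 after 8 h, 5 and 3 after 12 h, and 0 and 1 after 24 h. Hspa1b (chr17:34956429-34959238, minus strand) had 7 and 5 reads without DOX, 9 and 6 after 4 h, 3 and 2 after 8 h, 4 and 3 after 12 h, and 7 and 5 after 24 h. Neither gene had more than 9 reads in a sample, so no fold change is given for them. Both are single-exon genes that differ little. Of the 150-base windows along the annotated transcript, 46.0% of Hspa1a and 40.5% of Hspa1b occurred letter for letter in a transcript of another gene, mostly in each other. Reads that fit more than 1 place cannot be assigned from their sequence, and how the alignment treated them is not settled by the sources used here, so counts of either gene are uncertain. No read of either gene was assigned to an allele.

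**Figure D1:**
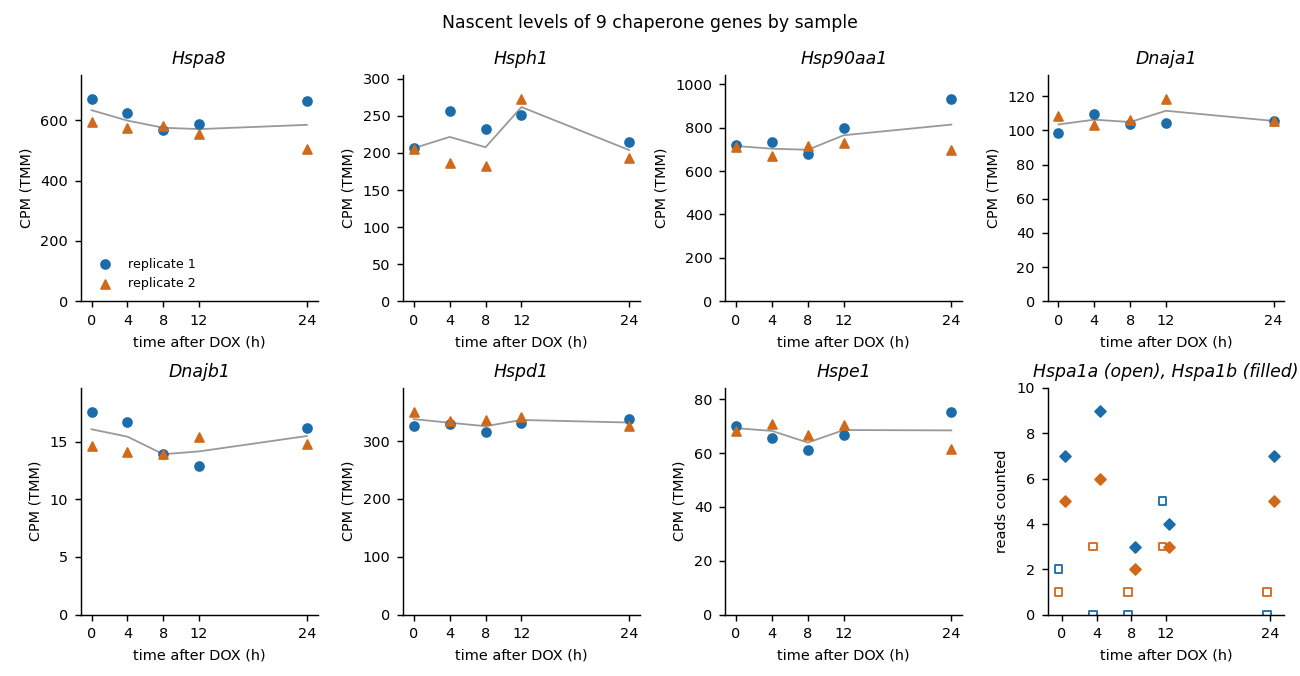
Nascent level (TMM-scaled CPM, axes from 0) of 7 chaperone genes and reads counted for Hspa1a and Hspa1b against hours of DOX; points are samples and the grey line is the mean of the 2 replicates. Hsph1 was highest at 12 h, Hspa8 and Hsp90aa1 differed most between replicates at 24 h, and Hspd1 was level throughout.

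Hspa8 (chr9:40801273-40805199, plus strand, 9 exons in the longest coding transcript) had levels of 672 and 596 CPM without DOX, 625 and 574 after 4 h, 569 and 583 after 8 h, 587 and 555 after 12 h, and 664 and 506 after 24 h. The highest pair of samples were both first replicates, at 0 h and 24 h, and the lowest was the second replicate at 24 h. Relative to 0 h, Hspa8 had log2 changes of -0.08, -0.14, -0.15 and -0.12 at the 4 later times, each with a standard error (SE) of 0.105 and with adjusted p from 0.604 to 1.0. The 95% interval at 24 h, from -0.34 to 0.11, leaves room for a modest fall as well as for none.

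Hsp90aa1 (chr12:110691036-110696395, minus strand, 11 exons) had 721 and 710 CPM without DOX, 735 and 670 after 4 h, 680 and 716 after 8 h, 800 and 730 after 12 h, and 933 and 695 after 24 h. The first replicate at 24 h stood above all other samples, and the second lay below both 0 h samples. The log2 change at 24 h was 0.19 (SE 0.108, 95% interval -0.04 to 0.42, adjusted p = 0.635). The 3 earlier times had log2 changes of -0.02, -0.04 and 0.10.

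Hsph1 (chr5:149616845-149636336, minus strand, 18 exons) had 207 and 206 CPM without DOX, 257 and 186 after 4 h, 233 and 183 after 8 h, 251 and 273 after 12 h, and 215 and 193 after 24 h. At 12 h both samples lay above both samples of 0, 8 and 24 h, while the first 4 h sample lay between the 12 h pair. Its 12 h level differed from 0 h by 0.34 on the log2 scale (SE 0.129, 95% interval 0.07 to 0.62, adjusted p = 0.305), and its 24 h level by -0.02 (95% interval -0.29 to 0.26). Against 12 h, the 24 h level differed by -0.36 (adjusted p = 0.482). None of these passed the threshold.

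The labels do not state that the replicate numbers pair the samples. Samples of the same number deviated together only weakly over all tested genes, with r from 0.142 to 0.281. For Hsph1 itself, replicate 2 differed from replicate 1 by -0.46 at 4 h and by 0.12 at 12 h on the log2 scale. With the number as a block, its SE at 12 h was 0.0842 instead of 0.129, for a reason that was not tested, and Hsph1 passed. Both SEs use a variance that edgeR moderates toward the trend over all tested genes. The standard deviation of Hsph1 itself between replicates was 0.194 in log2 CPM, at percentile 93.9 of the genes at 10 CPM or more. The blocked calls therefore do not rest on its own spread alone. In that fit Hsph1 rose 1.27-fold at 12 h (log2 0.35, SE 0.0842, adjusted p = 0.00917), fell by 0.37 on the log2 scale from 12 to 24 h (adjusted p = 0.0164) and differed among the 5 times (adjusted p = 0.00815). Of all genes, 4.94%, 1.48% and 6.12% passed in these comparisons of the blocked fit. The 12 h call held in 11 of 14 further fits with the block, with adjusted p from 5.89e-05 to 0.433. It was lost without the second 12 h replicate (log2 0.14, adjusted p = 0.433), without the first 0 h replicate (log2 0.25, adjusted p = 0.332) and with DESeq2 (adjusted p = 0.238). The call from 12 to 24 h was lost with DESeq2 and without the second 12 h replicate (log2 -0.17, adjusted p = 0.407) or either 24 h replicate, and the joint call with DESeq2 and without the second 12 h replicate (adjusted p = 0.592). No other member was called in the blocked fit at any time, and the nearest was Hsp90aa1 at 24 h (log2 0.18, adjusted p = 0.238).

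Neither HSP40 gene was called at any time. Dnaja1 (chr4:40722468-40734965, plus strand, 9 exons) had 98.6 and 108 CPM without DOX, 109 and 103 after 4 h, 104 and 106 after 8 h, 105 and 119 after 12 h, and 106 and 105 after 24 h. Its lowest sample was a 0 h replicate and its highest a 12 h replicate, and the log2 change was 0.11 at 12 h (95% interval -0.06 to 0.28) and 0.03 at 24 h (95% interval -0.14 to 0.20). Dnajb1 (chr8:83608175-83612653, plus strand, 3 exons) had 17.6 and 14.6 CPM without DOX, 16.8 and 14.2 after 4 h, 13.9 and 13.9 after 8 h, 12.9 and 15.4 after 12 h, and 16.2 and 14.9 after 24 h. With 263 to 380 reads a sample it was the least precise of the 7, and both of its 8 h samples lay below both samples of 0, 4 and 24 h. Its log2 change was -0.21 at 8 h (95% interval -0.50 to 0.08, adjusted p = 0.996) and -0.05 at 24 h.

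The mitochondrial pair showed no called change either. Hspd1 (chr1:55077834-55087932, minus strand, 12 exons) had 326 and 350 CPM without DOX, 329 and 335 after 4 h, 316 and 336 after 8 h, 332 and 342 after 12 h, and 339 and 326 after 24 h. The other groups all overlapped the 0 h pair or lay within it. Its log2 changes against 0 h ran from -0.05 at 8 h to -0.01 at 12 h, and the 24 h interval was -0.18 to 0.12. Hspe1 (chr1:55088148-55091317, plus strand, 4 exons) had 70.1 and 68.4 CPM without DOX, 65.5 and 70.9 after 4 h, 61.0 and 66.8 after 8 h, 66.6 and 70.5 after 12 h, and 75.2 and 61.6 after 24 h. Its highest sample and the next to lowest were the replicates of 24 h. Both 8 h samples were below both 0 h samples, with a log2 change of -0.12 (95% interval -0.32 to 0.09, adjusted p = 0.996).

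**Figure D2:**
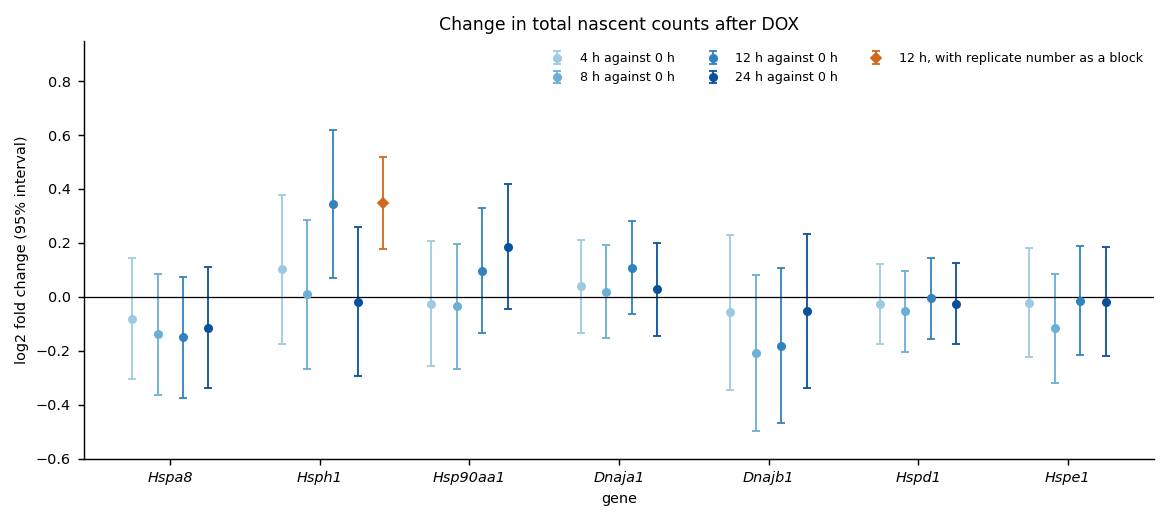
Log2 fold change in total counts against 0 h (points) with 95% intervals (bars) for 7 chaperone genes at each time, from the edgeR fit without a block; the orange diamond is Hsph1 at 12 h with the replicate number as a block. Apart from Hsph1 at 12 h, every interval includes 0.

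Across the 7 tested genes, 0 were called changed against 0 h at 4, 8, 12 or 24 h by edgeR without the block. Of all genes, 0.0138%, 0.193%, 0.95% and 1.85% were called in these comparisons. At an unadjusted p under 0.05 there was 1 of the 7, Hsph1 at 12 h, where 1673 of the 14525 genes had such a p, and DESeq2 and limma-voom also called 0. The bounds of the 95% intervals at 24 h lay between a 0.79-fold and a 1.34-fold level for all 7. The median log2 change of the 7 was -0.02, -0.05, -0.01 and -0.02 in these comparisons in turn, and that of all tested genes at 24 h was 0.01. Between successive times 0 of the 7 were called, against 0.0%, 0.0% and 0.00688% of all genes for 8 against 4 h, 12 against 8 h and 24 against 12 h. An unadjusted p under 0.05 was reached by 0, 1 and 1 of the 7 in these steps, Hsph1 in both cases, and by 336, 639 and 1310 of the 14525 genes tested. The joint test over the 5 times called 0 of the 7 and 1.25% of all genes.

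The members differed in their spread between replicates. The standard deviation (SD) of log2 CPM between replicates of a time was 0.194 for Hsph1, 0.149 for Hsp90aa1, 0.145 for Dnajb1 and 0.143 for Hspa8. It was 0.11 for Hspe1, 0.0776 for Dnaja1 and 0.0494 for Hspd1. Among 8662 genes at 10 CPM or more, whose median SD was 0.0905, Hsph1 stood at percentile 93.9, Hsp90aa1 at 85.3, Dnajb1 at 83.9, Hspa8 at 83.3 and Hspd1 at 9.43. Read counting alone would give an SD of 0.022 for Hsph1, 0.012 for Hsp90aa1, 0.013 for Hspa8 and 0.082 for Dnajb1, and a median of 0.043 over the same genes. Separate samples also differ in more than counting, and the ratio of the SDs grows with depth.

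**Figure D3:**
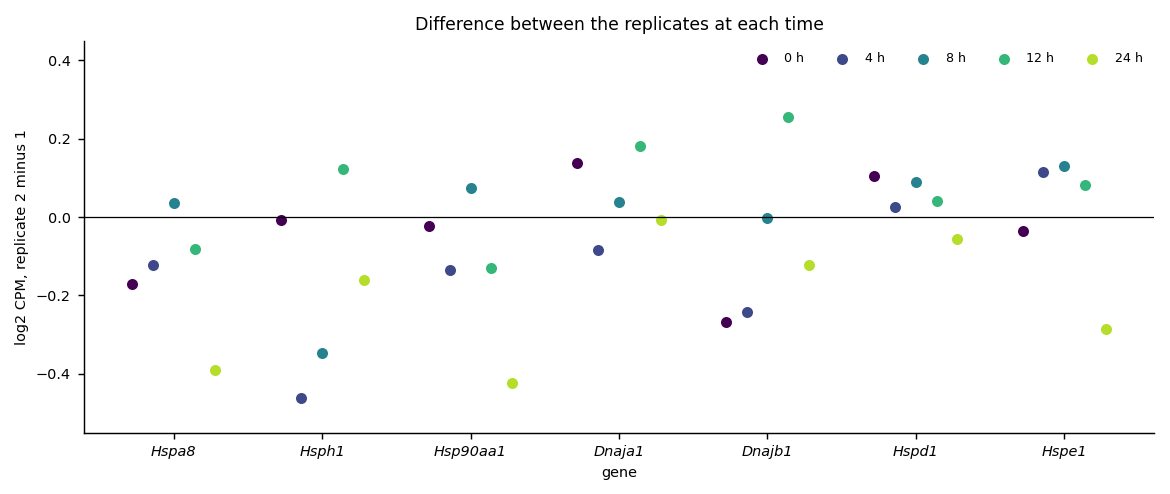
Difference in log2 CPM between replicate 2 and replicate 1 at each time of DOX for 7 chaperone genes, 1 point per time. Hsph1 reached -0.46 at 4 h and Hsp90aa1 and Hspa8 reached -0.42 and -0.39 at 24 h, while the points of Hspd1 lay between -0.06 and 0.10.

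The larger differences ran mostly one way. Hsph1 was lower in replicate 2 by 0.46 on the log2 scale at 4 h, a 1.38-fold difference, and by 0.35 at 8 h, but higher by 0.12 at 12 h. Hspa8 and Hsp90aa1 were lower in replicate 2 by 0.39 and 0.42 at 24 h, where Hspe1 was also lower by 0.29. Replicate 2 was the lower one at 4 of 5 times for Hspa8, Hsp90aa1, Hsph1 and Dnajb1, at 2 of 5 for Dnaja1 and Hspe1, and at 1 of 5 for Hspd1.

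Tested over all times, replicate series 2 was called lower than series 1 for 2 of the 7 genes, where 11.7% of all genes were called in either direction. These were Hsph1 (log2 -0.17, SE 0.0536, adjusted p = 0.0327) and Hspa8 (log2 -0.15, SE 0.0473, adjusted p = 0.0375). Hsp90aa1 had a log2 difference of -0.13 (95% interval -0.23 to -0.03) and missed the threshold (adjusted p = 0.0934), but was called without either 8 h sample (adjusted p = 0.0189 and 0.0206). Both calls depended on the tool and on single samples. DESeq2 called 0, and leaving out 1 sample ended the Hspa8 call in 5 of 10 cases and the Hsph1 call in 6 of 10. The Hspa8 difference was -0.09 without either 24 h sample, and that of Hsph1 was -0.10 without either 4 h sample. Hspd1 (0.04, 95% interval -0.04 to 0.13) and Hspe1 (0.00, 95% interval -0.10 to 0.10) had smaller differences.

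Other proteostasis genes differed between the series in both directions. The share of all genes called here, 11.7%, is the background for these counts. Of 4 tested small heat shock protein genes, 2 were called lower in series 2, Hspb1 (log2 -0.36, adjusted p = 0.0107) and Hspb8 (log2 -0.17, adjusted p = 0.0157). Of 18 tested genes of HSP90 and its co-chaperones, 3 were called higher, Fkbp5, Sugt1 and Tomm70a, with log2 differences of 0.13, 0.13 and 0.15. Called were also 1 of 26 other cytosolic HSP70, HSP110 and HSP40 chaperones (Dnaja2, log2 0.13) and 1 of 18 mitochondrial genes (Lonp1, log2 -0.15), but 0 of 14 TRiC and prefoldin genes and 0 of 6 heat shock factors and regulators, by edgeR. These genes were named after their values were seen.

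Correlation among the members was modest. Over the 10 samples, the Pearson r of log2 CPM was positive for 16 of the 21 pairs of tested members, with a median of 0.20 and a range from -0.33 to 0.64. The divergent pair Hspd1 and Hspe1 had the highest r, 0.64, and Dnaja1 and Hspa8 the lowest. Hspa8 and Hsp90aa1 had an r of 0.54, and Hsph1 had 0.09 with Hspa8 and 0.26 with Hsp90aa1. The points share libraries and their scaling, and these values are a description over 10 samples. Among 8655 other genes at 10 CPM or more, the profiles most like the mean of the 7 were those of Jmjd6 (r = 0.913), Amt (0.89), Tgif1 (0.882), Etfdh (0.881) and Akip1 (0.875). These are the highest of 8655 values, so r is high by the choice itself, and a link to the members was not tested. The mean profile was highest and lowest in the replicates of 24 h (0.11 and -0.096), so the likeness includes differences between replicates.

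**Figure D4:**
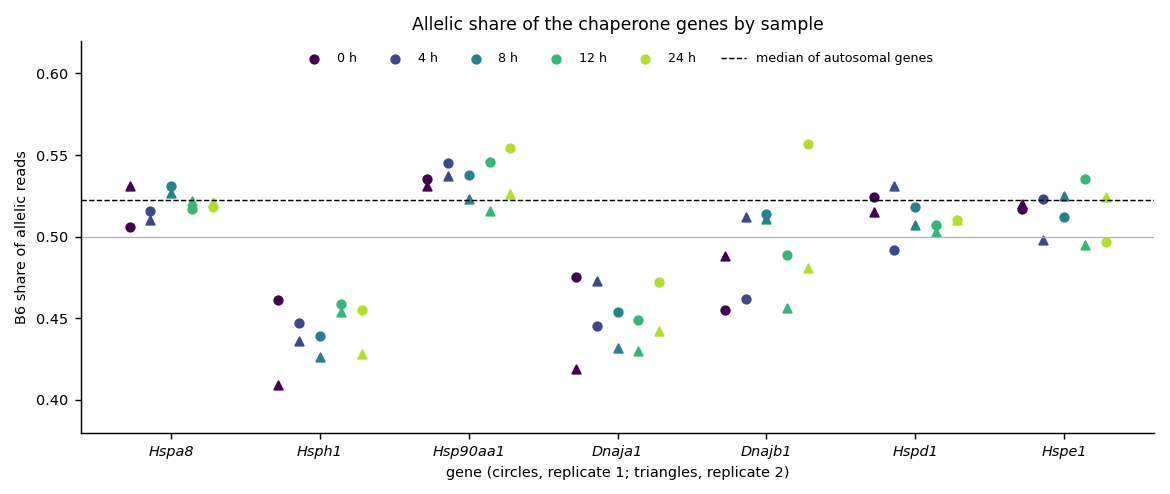
B6 share of allelic reads in each sample for 7 chaperone genes (circles, replicate 1; triangles, replicate 2; colours, hours of DOX), with the autosomal median of 0.522 dashed and 0.5 in grey. All points of Hsph1 and Dnaja1 lie below 0.5, and no gene shows a course over time that was called.

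Reads that cover a strain difference gave the share of the B6 allele. Every member lies on an autosome. The B6 share was called changed against 0 h for 0 of the 7, with 0.353%, 1.65%, 2.16% and 2.65% of all 11906 tested genes called at 4, 8, 12 and 24 h. Unadjusted p was under 0.05 for 1 of the 7, Hsph1 at 12 h (B6 to Cast ratio up by 0.14 on the log2 scale, 95% interval 0.01 to 0.27, adjusted p = 0.572), as for 896 of the 11906 genes at that time, and limma-voom called 0. Its share was 0.461 and 0.409 at 0 h and 0.459 and 0.454 at 12 h. Without the first 0 h replicate this change was called (log2 0.30, adjusted p = 0.0105). The intervals of Dnajb1, with 86 to 114 allelic reads a sample, were wide, from -0.33 to 0.89 at 24 h.

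Averaged over all samples, the alleles of 4 of the 7 genes were unequal relative to the typical gene, as were 70.0% of all tested genes. Hsph1 had shares of 0.409 to 0.461 (mean 0.441), all 10 below 0.5, and a log2 ratio of B6 to Cast of -0.46 (SE 0.0272, adjusted p = 6.02e-12). Dnaja1 had shares of 0.419 to 0.475 (mean 0.449), also all below 0.5, and a ratio of -0.42 (SE 0.0356, adjusted p = 1.86e-09). These shares stood at percentiles 15.7 and 17.1 of 11543 autosomal genes, whose median share was 0.522.

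The remaining allele ratios were small. Hsp90aa1 had shares of 0.516 to 0.554, all above 0.5, and a ratio of 0.08 (adjusted p = 0.00151). Hspd1 had a ratio of -0.06 (adjusted p = 0.0393) although 9 of its 10 shares were above 0.5, and the sign turned to 0.07 with equal library sizes for the 2 alleles. Hspa8 had shares of 0.506 to 0.531 and a ratio of -0.01 (95% interval -0.04 to 0.02). Hspe1 had a ratio of -0.04 (95% interval -0.11 to 0.02). Dnajb1 had one of -0.17, which was not called (edgeR, unadjusted p = 0.0599, adjusted p = 0.0818). The ratios of Hspa8 and Hspe1 also turned positive, to 0.12 and 0.08, with equal library sizes.

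**Figure D5:**
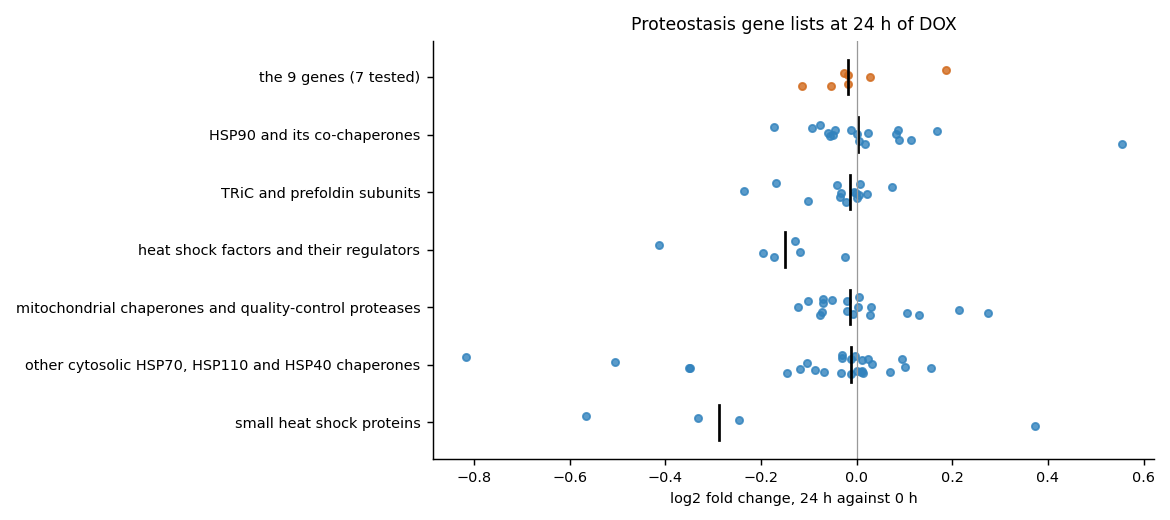
Log2 fold change in total counts at 24 h against 0 h for the tested genes of the 9 members and of 6 related lists, 1 point per gene, with the list median as a black bar. The medians of the members, of HSP90 with its co-chaperones and of TRiC with prefoldin lie within 0.02 of 0. So do those of the mitochondrial list and of the other HSP70 and HSP40 genes. The median is -0.29 for the 4 tested small heat shock genes and -0.15 for the 6 tested heat shock factors and regulators. In either list 0 were called at 24 h, where 1.85% of all genes were called.

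Calls in the wider chaperone network were few, as they were among all genes. Without a block, 0.0138%, 0.193%, 0.95% and 1.85% of all genes were called at 4, 8, 12 and 24 h. Finding 0 in lists of this size is near those shares. In the fit without a block, 0 genes were called against 0 h at any time in 6 lists: 26 tested genes of other cytosolic HSP70, HSP110 and HSP40 chaperones, 18 of HSP90 and its co-chaperones, 4 small heat shock genes, 18 mitochondrial chaperones and proteases, 14 subunits of the chaperonin TRiC and of prefoldin, and 6 heat shock factors and regulators. DESeq2 and limma-voom also called 0. Of the 14 TRiC and prefoldin genes, the log2 change was below 0 for 14, 13, 12 and 9 at the 4 later times in turn, with medians of -0.07, -0.04, -0.03 and -0.01, where the median of all genes was 0.00 at 4 h and 0.01 at 24 h. Of the 6 tested heat shock factors and regulators it was below 0 for 4, 4, 4 and 6, with medians of -0.10, -0.06, -0.10 and -0.15. All genes and all 4 comparisons share the same 0 h samples, so these counts are not independent of each other.

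With the replicate block, 5 of these genes were called against 0 h. At 12 h there were 3, where 4.94% of all genes were called, and at 24 h there were 3, where 5.32% were, Vbp1 being called at both times. Stub1, a ubiquitin ligase that binds HSP70 and HSP90, fell by 0.50 on the log2 scale at 24 h (adjusted p = 0.02). Unc45a, an HSP90 co-chaperone for myosin, rose by 0.56 at 24 h (adjusted p = 0.0346). Chordc1, another HSP90 co-chaperone, rose by 0.25 at 12 h (adjusted p = 0.0489), and Yme1l1, a protease of the inner mitochondrial membrane, rose by 0.27 at 12 h (adjusted p = 0.0144). The X-linked prefoldin gene Vbp1 fell by 0.25 at 12 h (adjusted p = 0.039) and by 0.23 at 24 h (adjusted p = 0.0482).

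Regulators and close relatives of the members had measured levels of the same order throughout. Hsf1, the main heat shock factor, had a mean of 44.4 CPM at 0 h and 38.7 at 24 h, a log2 change of -0.20 (SE 0.0866, adjusted p = 0.451). Hsf2 had 115 and 113 CPM (log2 -0.02, SE 0.0906). Hsp90ab1, the constitutive HSP90 gene, had 406 and 408 CPM (log2 0.00, SE 0.105), and the mitochondrial HSP70 gene Hspa9 had 369 and 364 CPM (log2 -0.02, SE 0.0709).

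Exons of some members occur elsewhere in the annotation. Of the 150-base windows along the longest coding transcript, 56.0% of Hspa8, 36.2% of Hsp90aa1, 20.0% of Dnaja1, 18.6% of Hspd1 and 14.1% of Hspe1 were found in a transcript of another gene, and 0.0% of Hsph1 and Dnajb1. Exons made up 57.7% of the counted span of Hspa8, 29.7% of that of Dnaja1 and 23.1% of that of Hspd1, the rest being intron, where such copies were not searched. How reads from such windows were placed is not settled by the sources used here, and the direction of any effect on the levels was not tested.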

How the data were processed

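By the methods, the authors trimmed reads with Cutadapt, aligned them with STAR to mm10 masked at strain differences, kept unique, properly paired alignments and counted them by strand over the longest refFlat span with introns. The submitters' processing notes name TopHat2 2.1.0, bedtools, featureCounts 1.5.1 and mm10 instead, and which aligner made these tables is not settled by the sources used here. The deposited files hold raw read counts per gene in total and per allele, and a fraction, B6 counts over allelic counts, which the authors list for genes with at least 10 allelic reads.

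Total counts were tested with edgeR 4.0.16 (quasi-likelihood, R 4.3.3) with time as a factor in all 10 samples, after filterByExpr and TMM scaling. Two-sided p-values were adjusted by Benjamini-Hochberg over all tested genes, and an adjusted p under 0.05 counts as a call. Allele counts were tested with edgeR on 20 columns with an intercept per sample, where each sample held 10 or more allelic reads. No spike-in scaling was used, so a change common to most genes would not be seen. Alternatives were RLE size factors, no filter, DESeq2 1.42.0, limma-voom (limma 3.58.1), a replicate block, an allelic minimum of 50, equal allele library sizes, CPM by library size alone and each sample left out; the block together with each other setting was added for Hsph1 after seeing the data. Deviations from the time means of same-numbered samples correlated with r from 0.142 to 0.281 in all 10 pairs of times for total counts. For allele ratios r ran from 0.000396 to 0.0324. The labels state no pairing. The main fits held no replicate term, the block was run as an alternative, and the replicate series were compared in the blocked fit. Replicates of a time were separate libraries, with a chi-square per degree of freedom of 5.08 to 10.8, the highest being the 0 h pair.

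The members, lists and tests were chosen with earlier results of these data known. Named from the lists were genes called against 0 h or in the joint test with or without the block, Hsp90ab1, Hspa9, Hspa5, Hsf1, Hsf2, and the 5 most similar profiles; where a list had no called gene, its 2 largest changes at 24 h at 5 CPM or more were taken, which gave Hspb11 (log2 0.37) and Hspb1 (-0.33) among small heat shock genes and Hsf1 (-0.20) and Hsf5 (-0.17) among heat shock factors. Hspa5 changed by -0.04 (adjusted p = 0.962) at 24 h. The primed epiblast, primitive endoderm, neural and trophoblast markers summed to 254 to 298, 54.7 to 65.7, 13.1 to 23.1 and 6.22 to 10.9 CPM. Sequence was matched to GENCODE transcripts and RefSeq promoters. Scripts were tested on simulated data. Python 3.11.15, numpy 2.4.6, pandas 2.3.3, scipy 1.17.1 and matplotlib 3.10.9 were used.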

Additional observations from a re-analysis of the deposited data

How the results depend on the processing

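Counts of members called against 0 h, between successive times and at any time stayed at 0 under RLE size factors, without the filter, with DESeq2, with limma-voom and with each sample left out (0 to 0 in each). With the replicate number as a block, 1 member, Hsph1, was called in each of the 3, and 5 genes of the other lists against 0; in no other member or list did the block change a call. The lists gave 0 to 1 called genes with each sample left out, the 1 being Yme1l1 without the second 0 h replicate. The 2 members called between replicate series became 3 without the filter, which added Hsp90aa1, 0 with DESeq2, and 0 to 2 with each sample left out, with 0 without the second 4 h sample or either 24 h sample, and Hsp90aa1 in place of Hsph1 without either 8 h sample. Members with a changed B6 share numbered 0 under every alternative except 1, Hsph1, without the first 0 h replicate (0 to 1 with each sample left out), and 0 with the block. The 4 members with unequal alleles stayed 4 with the block, became 6 with equal library sizes for the alleles, and were 3 to 5 with each sample left out, Hspd1 being lost in 5 of these and Dnajb1 gained without the first 24 h sample. With equal library sizes the log2 ratios of Hspa8, Hspd1 and Hspe1 turned positive, to 0.115, 0.0679 and 0.0825, as that setting leaves out the scaling to the typical gene. The cause of the other changes was not tested. With 2 samples a time, the SE of a member's log2 change at 4 h without the block ran from 0.0701 for Hspd1 to 0.135 for Dnajb1, which limits the size of change that could be called.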
